A study of Mus musculus with 6 samples.

Results

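The clustered protocadherins are the neuronal adhesion genes of the mouse Pcdha, Pcdhb and Pcdhg clusters. Every gene of the deposited expression table whose symbol begins with Pcdha, Pcdhb or Pcdhg was taken as a member, which gave 57 genes of the 20620 in the table: 14 of the alpha cluster, 21 of the beta cluster and 22 of the gamma cluster. The table comes from an RNA-seq study of the hippocampus of male mice on a C57BL/6J background, with 1 library per mouse and 3 mice in each of 2 groups. The control mice carried the allele labelled Braf Q241R Neo/+ with no Cre driver in their genotype, and were 32, 32 and 31 weeks old. The n-Braf mice carried Braf Q241R/+ together with CaMKII-Cre, were 33, 32 and 34 weeks old, and express the mutant Braf kinase in mature excitatory neurons, where the CaMKII promoter drives the Cre recombinase. The groups differ in the Cre driver and in the Neo allele together, so their effects cannot be told apart, and RNA of the whole hippocampus also holds the transcripts of cells without Cre. The labels number each mouse separately.

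Clustered protocadherins are cadherin-family proteins of the cell surface. Each alpha and gamma gene contributes its own large first exon, with its own promoter, which is spliced to constant exons that all genes of the cluster share and that encode a common cytoplasmic end, whereas the beta genes are single-exon genes without such a shared end. Single neurons switch on a few of the alternative promoters in combinations, by a choice that involves CTCF and cohesin, while the C-type genes at the ends of the alpha and gamma clusters are used more uniformly. Matching combinations on facing membranes let a neuron tell its own branches from those of its neighbours.

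The members lie on the plus strand of chromosome 18 in the GENCODE M21 annotation of GRCm38, the assembly that UCSC calls mm10. The alpha cluster spans 36930184 to 37187661, the beta cluster 37294812 to 37524479 and the gamma cluster 37661793 to 37841873. The annotation holds 14, 22 and 22 protocadherin models in the alpha, beta and gamma clusters, and Pcdhb1 of the beta cluster had no entry in the table and was not analysed here. Symbols are those of the table. The gene it lists as Pcdha10 (ENSMUSG00000007440) bears the name Pcdha11 in GENCODE M21, a name the annotation also gives to the gene that the table calls Pcdha11 (ENSMUSG00000102206). Pcdhgb8 is annotated as a polymorphic pseudogene.

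The shared exons set how well reads can be assigned to 1 member. Between 38.0% and 54.9% of the exon bases of each alpha member, with a median of 53.4%, also belong to other members, and for gamma members this share was 27.8% to 66.8% with a median of 44.7%. Of the beta members, 19 of 21 share no exon base with another member, and the highest share was 9.67%. When transcripts were divided into windows of 75 bases, a median of 42.4% of an alpha member's windows, 56.0% of a gamma member's and 98.7% of a beta member's occurred in no other gene. The lowest value belonged to Pcdha4, with 10.8%. The deposited values are expected counts, in which reads that fit several genes are divided among them by estimate, and the deposited values showed this division: 98.8% of the alpha values and 98.5% of the gamma values were not whole numbers (to within 0.005), against 36.5% of the beta values and 27.7% over all genes. Control 1 stood apart in this measure, with 66.7% of its beta values and 31.4% of all its values not whole, against 14.3% to 38.1% and 26.2% to 27.9% in the other 5 libraries. The sum over a cluster does not depend on how reads are divided among its own members.

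Between 25227112 and 31832245 counts were assigned to genes in each library, and the members together received 23882 to 30496 of them, or 0.0881% to 0.0958%. All 57 members passed the filter on low counts, and the lowest count of a member in any library was 53.4 for the alpha, 59 for the beta and 241.1 for the gamma cluster. Levels are given as CPM, a gene's counts relative to the total of its library, after the libraries were scaled by the TMM method (trimmed mean of M values). Braf itself, which checks the labels, was at 116, 123 and 116 CPM in the control mice and 185, 184 and 205 CPM in n-Braf mice, a log2 fold change of 0.69 (SE 0.07) with an adjusted p of 0.0533 by edgeR's quasi-likelihood test. Camk2a and Slc17a7, defining markers of excitatory neurons, were present in every library at 2120 to 2904 and 440 to 567 CPM. Control libraries 1 and 2 stood apart from the rest in markers of the choroid plexus, whose summed level was 2486 and 1379 CPM there against 29.2 to 48.4 CPM in the other 4 libraries.

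No clustered protocadherin differed between n-Braf and control hippocampus past the threshold. At an adjusted p under 0.05, edgeR's quasi-likelihood test called 0 of the 57 members and 0 (0%) of the 20604 genes tested. The smallest adjusted p of a member was 0.713. At an unadjusted p under 0.05 it picked 2 members (3.51%), Pcdhb9 and Pcdhga1, against 6.82% of all genes. DESeq2 also called 0 members at an adjusted p under 0.05, where it called 0.379% of all genes, and it picked 1 member, Pcdhga1, at an unadjusted p under 0.05 against 5.59% of all genes. With limma-voom these counts were 0 members against 0% of all genes at the adjusted p, and 2 members against 6.22% of all genes at the unadjusted p. With each of the 3 tools the share of members past the unadjusted threshold was not above the background. In RNA from whole tissue, fewer cells of a type and less RNA per cell cannot be told apart, and this holds for every level given here.

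The members' fold changes were small. They ran from -0.38 for Pcdhga1 to 0.40 for Pcdha1 on the log2 scale, with a median of 0.014 beside -0.0042 for all genes tested, and 5 of 57 exceeded 0.25 in either direction. By sign, 31 members (54.4%) were above 0 and 26 below, where 49.0% of all genes were above 0. The 95% intervals show how precisely these 6 libraries measured each member, and are not adjusted for the number of genes. Uncertainty in dividing shared reads enters them only as far as it shows in the spread among mice. In 40 of 57 members the whole interval lay within 0.5 of 0 on the log2 scale, in 57 of 57 it lay within 1, and the outermost bounds were -0.72 for Pcdhga1 and 0.91 for Pcdha1. The median standard error was 0.14 in the alpha, 0.15 in the beta and 0.11 in the gamma cluster. Across members, the standard error was lower where the mean level was higher (Spearman's rho -0.84 over 57 genes of the same 6 libraries). It showed almost no relation to the share of windows found in no other gene (rho 0.026). That value pools clusters that also differ in level, so it cannot show what shared reads cost in precision. Pcdha4, with the lowest share of such windows, had the largest standard error at 0.25. The spread among mice of a group, as the median SD of log2 levels, was 0.153, 0.157 and 0.138 in the alpha, beta and gamma clusters, beside 0.136 for the 12156 other genes in the members' range of 2.75 to 111 CPM. Those genes were matched on the range alone and not on the levels within it, so the values are not compared at equal level.

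**Figure D1:**
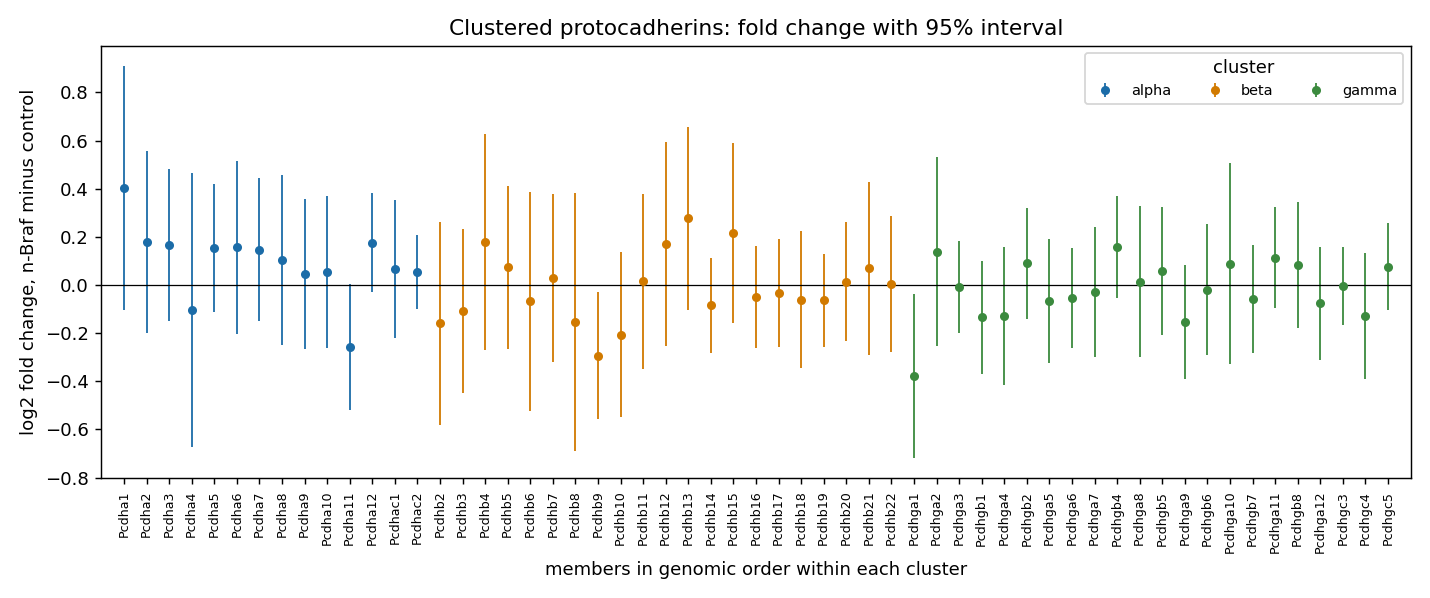
Fold change of each member between n-Braf and control mice (log2, vertical axis) in genomic order within the alpha, beta and gamma clusters, from edgeR's fit to 3 libraries a group; points are estimates and bars 95% intervals. Most intervals cross 0, and the exceptions are those of Pcdhb9 and Pcdhga1, whose unadjusted p was under 0.05.

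In the plot of fold changes the alpha points lie mostly above 0 and the beta and gamma points on both sides of it. Of the alpha members 12 were above 0 and 2 below (85.7% above), and the median log2 fold change was 0.13. Of the beta members 10 were above 0 and 11 below (47.6%), with a median of -0.033. Of the gamma members 9 were above 0 and 13 below (40.9%), with a median of -0.014. The beta and gamma signs turned when single libraries were left out. The beta median was 0.0029 without control 1 and 0.0065 without control 3. The gamma median was 0.016 without n-Braf 2, with 13 members above 0, and -0.061 without n-Braf 1, with 7 above 0. Neither cluster had a direction that held over these leave-outs. Reads of the constant exons are divided among the members of a cluster, so the signs of its members are not independent of each other.

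Summed over each cluster, the levels of the groups overlapped in all 3 clusters. The alpha sum was 151, 166 and 169 CPM in the controls and 179, 171 and 164 CPM in the n-Braf mice. Its group means were 162 ± 9.63 and 171 ± 7.40 CPM (SD, n = 3 each), a log2 ratio of 0.078 beside an SD of 0.076 among mice of a group on the same scale. Control 1 was the lowest and n-Braf 1 the highest library. The beta sum was 188, 173 and 183 CPM in the controls and 179, 176 and 178 CPM in the n-Braf mice. Its means were 181 ± 7.62 and 178 ± 1.70 CPM, a log2 ratio of -0.028 that was -0.0029 without control 1 and -0.061 without control 2. All 3 n-Braf values lay inside the range of the controls. The gamma sum was 568, 575 and 577 CPM in the controls and 596, 541 and 585 CPM in the n-Braf mice. Its means were 574 ± 4.71 and 574 ± 29.2 CPM, a log2 ratio of 0.0013 that was 0.042 without n-Braf 2 and -0.029 without n-Braf 1. The control values lay within the wider range of the n-Braf values. All 57 members together summed to 917 ± 11.4 CPM in controls and 923 ± 33.2 CPM in n-Braf mice.

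**Figure D2:**
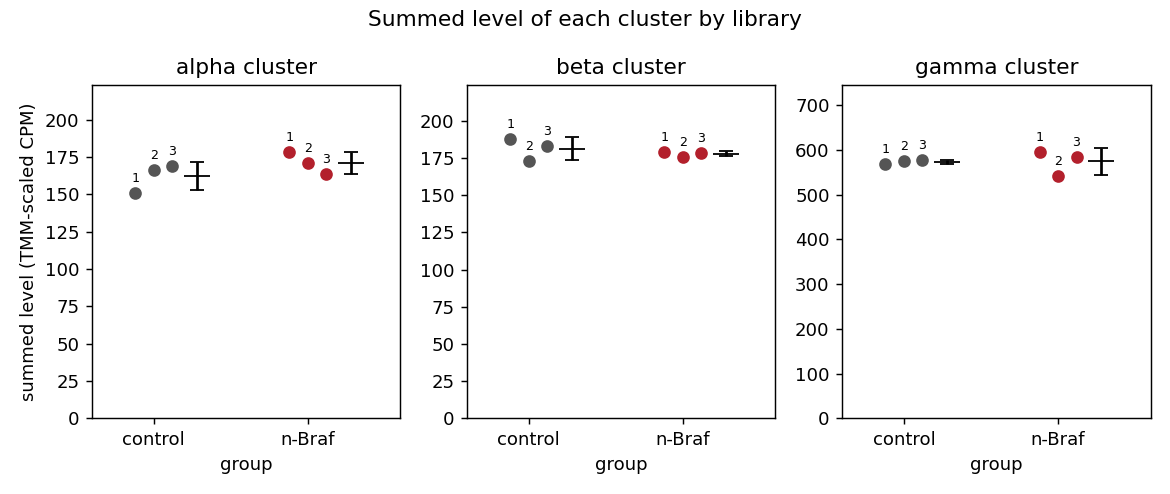
Summed level of the alpha, beta and gamma clusters in each library (TMM-scaled CPM, from 0), with the replicate number beside each point and the mean ± SD of 3 libraries as a bar at the right of each group. The groups overlap in each panel, and the control 1 library is the lowest of the alpha panel at 151 CPM.

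The clusters kept their proportions within the spread among mice. The alpha cluster took 17.7% ± 0.880 of the members' counts in controls and 18.6% ± 0.819 in n-Braf mice. The beta cluster took 19.8% ± 0.895 and 19.3% ± 0.512, and the gamma cluster 62.5% ± 0.408 and 62.2% ± 1.13. Each difference was smaller than the larger of the SDs of its groups, although in the alpha cluster only just. These are shares of counts and are not corrected for transcript length.

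The C-type genes, of which Pcdhac2, Pcdhgc3 and Pcdhgc5 had the smallest standard errors of all members, differed little between the groups. Pcdhac2, which is known for the tiling of serotonergic axons, was at 51.2, 54.6 and 57.0 CPM in the control mice and 59.1, 55.2 and 54.8 CPM in n-Braf mice, a log2 fold change of 0.05 (SE 0.07). The values of the groups were interleaved, with control 1 lowest. Pcdhac1, the other C-type gene of the alpha cluster, was at 7.01, 8.23 and 7.59 CPM in the control mice and 8.26, 8.43 and 7.22 CPM in n-Braf mice (0.07, SE 0.13). Its groups overlapped as well. Without control 1 the log2 fold changes of Pcdhac2 and Pcdhac1 were 0.013 and 0.011, and with age as a covariate they were 0.096 and 0.17.

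Pcdhgc3, a gamma C-type gene known for a role in dendrite arborisation, was at 70.7, 62.6 and 69.5 CPM in the control mice and 66.1, 71.1 and 65.0 CPM in n-Braf mice. Its log2 fold change was -0.0039 with a 95% interval from -0.16 to 0.16, and its sign reversed without control 1. Pcdhgc4, which is known for the survival of cortical interneurons, was at 13.0, 12.8 and 14.8 CPM in the control mice and 13.4, 12.8 and 10.96 CPM in n-Braf mice. The n-Braf 3 library held the lowest value and control 3 the highest, and the log2 fold change was -0.13 (SE 0.12). Pcdhgc5, a C-type gene reported at inhibitory synapses, was at 108, 111 and 105 CPM in the control mice and 126, 102 and 114 CPM in n-Braf mice. Both the highest and the lowest library were n-Braf, and the log2 fold change was 0.08 (SE 0.08). Without n-Braf 1 this became -0.0042. All 5 C-type intervals lay within 0.5 of 0, and their smallest adjusted p was 0.908 by edgeR's quasi-likelihood test. C-type genes made up 38.1% ± 0.357 of the alpha counts in controls and 37.6% ± 0.367 in n-Braf mice, and 33.0% ± 0.700 and 33.7% ± 1.18 of the gamma counts. The alpha shares differed by more than either SD, with a log2 ratio of -0.023 beside a pooled SD of 0.014. Their groups overlapped, and the difference was not tested. Pcdhac2 alone held 33.5% of the alpha counts in controls and 32.9% in n-Braf mice.

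Among the remaining alpha genes, Pcdha11 and Pcdha12 had groups that did not overlap, in opposite directions. Pcdha11 was at 10.0, 10.1 and 8.76 CPM in the control mice and 8.32, 8.18 and 7.69 CPM in n-Braf mice. Every n-Braf value was below every control value, with a log2 fold change of -0.26 (SE 0.12) and an adjusted p of 0.736 by edgeR's quasi-likelihood test. Pcdha12 was at 14.9, 16.0 and 14.1 CPM in the control mice and 16.7, 17.1 and 17.2 CPM in n-Braf mice. Here every n-Braf value was above every control value, with a log2 fold change of 0.18 (SE 0.09) and an adjusted p of 0.790. Both encode alternate alpha isoforms whose first exons are neighbours in the cluster, starting at 37010712 and 37020149.

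Pcdha1, the first gene of the alpha cluster, had the largest positive log2 fold change of the members at 0.40 (SE 0.22). It was at 1.98, 2.13 and 2.998 CPM in the control mice and 3.54, 2.77 and 3.10 CPM in n-Braf mice. Control 3 lay among the n-Braf values, so the groups overlapped. Across the 18 refits made with other settings its log2 fold change ran from 0.06 to 0.61. Pcdha5 was at 11.6, 9.72 and 10.7 CPM in the control mice and 13.1, 11.01 and 11.5 CPM in n-Braf mice, with overlapping groups and a log2 fold change of 0.16 (SE 0.12). The only alpha member below 0 beside Pcdha11 was Pcdha4, described here because its values were seen to vary.

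Pcdha4 was at 3.58, 5.87 and 5.37 CPM in the control mice and 5.79, 3.30 and 4.70 CPM in n-Braf mice, a log2 fold change of -0.10 (SE 0.25) that became 0.09 without n-Braf 2. Its standard error was the largest of all members. It overlaps a read-through gene model that begins just downstream of its start and runs into the gamma cluster (36952741 to 37840200), ENSMUSG00000103458, which GENCODE M21 names Gm42416 and the table Gm37013. The read-through model has 2713 windows in common with members. Gm42416 was at 7.31, 2.39 and 5.88 CPM in the control mice and 4.35, 8.62 and 3.61 CPM in n-Braf mice. In 4 of the 6 libraries 1 of the pair was above its own 6-library mean and the other below. The sum of both was less variable, with a pooled SD of log2 levels of 0.253 beside 0.395 for Pcdha4 and 0.764 for Gm42416. The sum averaged 10.1 CPM in each group, a log2 ratio of -0.0015. With Gm42416 added, the log2 ratio of the alpha sum was still 0.078. At the far end, the processed transcript Gm38182 (37823879 to 37840382) has 1304 windows in common with members. It was at 18.9, 6.69 and 7.79 CPM in the control mice and 7.64, 11.3 and 10.2 CPM in n-Braf mice, with control 1 highest. Adding it gave a log2 ratio of the gamma sum of -0.0022.

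In the alpha cluster the direction rested in part on single libraries. Control 1 held the lowest value of 8 of the 14 members and the highest of 0, whereas n-Braf 1 held the highest of 6 and the lowest of 0. The alpha median of 0.13 became 0.04 without control 1, 0.06 without n-Braf 1 and 0.07 without controls 1 and 2 together. With age as a covariate, which differed little but was higher on average in n-Braf mice, it became 0.20. The number of alpha members above 0 was 10 without control 1 and 8 without controls 1 and 2. The log2 ratio of the alpha sum was 0.03 without control 1, the library that also had the most values that were not whole.

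Marker lists of other cells and regions differed between the libraries as well. The mean deviation of the alpha members from their own 6-library average was -0.17, -0.0047 and 0.03 on the log2 scale in controls 1 to 3 and 0.13, 0.04 and -0.02 in n-Braf 1 to 3. For 12 interneuron markers it was -0.13, -0.12 and 0.02 in controls and 0.18, 0.09 and -0.03 in n-Braf mice, and for 14 neocortex markers -0.15, -0.16 and 0.07 in controls and 0.23, 0.12 and -0.11 in n-Braf mice. All 3 sets were at their highest in n-Braf 1. The interneuron markers ranked the libraries as the alpha members did, except that control 2 and n-Braf 3 changed places. The neocortex markers shared the alpha order for the highest libraries, n-Braf 1, n-Braf 2 and control 3, and differed below them. The 12 oligodendrocyte markers ran the other way in several libraries, with 0.23, -0.04 and 0.32 in the controls and -0.28, -0.35 and 0.12 in the n-Braf mice. For 12 hippocampal excitatory neuron markers the values were -0.03, 0.03 and -0.09 in controls and 0.0026, -0.09 and 0.19 in n-Braf mice, highest in n-Braf 3. For 10 leptomeninges markers they were 1.02, -0.43 and 0.03 in controls and 0.39, 0.02 and -1.02 in n-Braf mice, highest in control 1. The interneuron markers, which include Gad1, Pvalb and Sst, had 12 of 12 log2 fold changes above 0 with a median of 0.12, and their summed level was 754 to 868 CPM in controls and 828 to 965 CPM in n-Braf mice. The neocortex markers had 13 of 14 above 0 with a median of 0.15, and summed to 584 to 670 CPM in controls and 625 to 729 CPM in n-Braf mice. The oligodendrocyte markers had 0 of 12 above 0 with a median of -0.35, and summed to 1740 to 2252 CPM in controls and 1474 to 2017 CPM in n-Braf mice. The 8 ependymal markers had 0 above 0 with a median of -1.31, deviated by 1.08 in control 1, and summed to 28.2 to 59.6 CPM in controls and 17.5 to 22.3 CPM in n-Braf mice, without overlap. The 12 astrocyte markers had 9 above 0 with a median of 0.05. Their sums did not overlap either, at 4491 to 4783 CPM in controls and 5050 to 5133 CPM in n-Braf mice. Slc1a2 made up most of these sums, with means of 3282 CPM in controls and 3661 CPM in n-Braf mice. Of the 12 genes, 2 had groups that did not overlap, Slc1a2 and Aldoc, against 11.5% of all genes. Both were higher in n-Braf mice, as were 6.09% of all genes. The mean deviations of the list overlapped, with 0.0018, -0.06 and 0.02 in controls and -0.0028, 0.03 and 0.02 in n-Braf mice. The part of these markers in the alpha values was not tested.

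**Figure D3:**
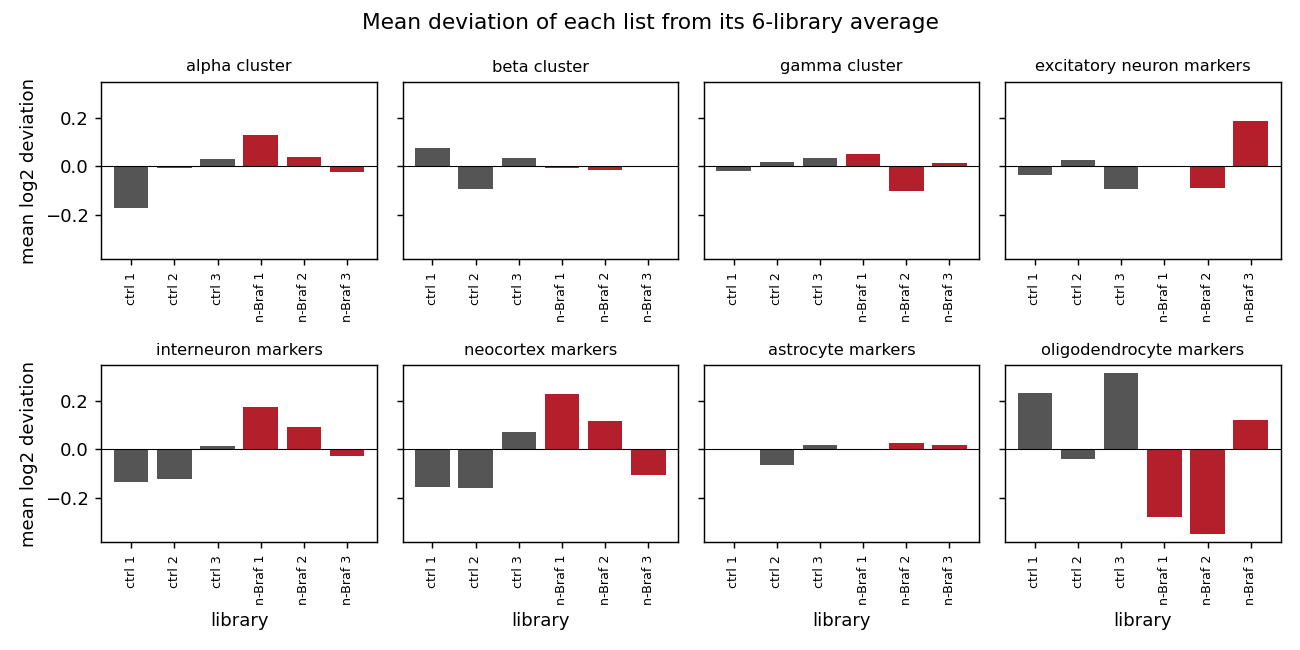
Mean deviation of each set of genes from its average over the 6 libraries (log2, vertical axis) for the 3 clusters and 5 marker lists, with 1 bar per library, controls in grey and n-Braf in red. In the alpha panel control 1 is lowest at -0.17 and n-Braf 1 highest at 0.13. The highest bar of the interneuron and neocortex panels is also n-Braf 1, while that of the excitatory neuron panel is n-Braf 3.

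Among the beta genes, whose reads are almost all unique, Pcdhb9 stood first by p. Pcdhb9 (37400855 to 37403909) was at 9.81, 9.65 and 10.7 CPM in the control mice and 8.01, 7.65 and 8.99 CPM in n-Braf mice. Every n-Braf value was below every control value. Its log2 fold change was -0.29 (SE 0.12, 95% interval -0.56 to -0.03), with a p of 0.0337 and an adjusted p of 0.713 by edgeR's quasi-likelihood test. The authors' deposited table gives it a log2 fold change of -0.30 and a p of 0.0855. In the 18 refits its log2 fold change stayed between -0.39 and -0.24 and its adjusted p at 0.577 or above.

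Pcdhb10, the next gene downstream, also had groups that did not overlap, at 4.70, 4.90 and 4.36 CPM in the control mice and 3.79, 4.09 and 4.22 CPM in n-Braf mice (log2 fold change -0.21, SE 0.15). The nearest values of the groups were 4.36 and 4.22 CPM. Pcdhb13 was at 4.03, 4.19 and 4.13 CPM in the control mice and 5.19, 4.12 and 5.65 CPM in n-Braf mice (0.28, SE 0.17). Its 3 controls were nearly equal, n-Braf 2 lay among them, and with age as a covariate its log2 fold change was 0.041. Pcdhb15 was at 6.19, 4.56 and 4.63 CPM in the control mice and 6.10, 6.26 and 5.52 CPM in n-Braf mice (0.22, SE 0.17). Control 1 was level with the n-Braf values while the other 2 controls were below them. These 3 genes are single-exon genes like the rest of the cluster, and their adjusted p-values by edgeR's quasi-likelihood test were 0.825 or above.

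Among the gamma genes, Pcdhga1, the first of the cluster at 37661793, had the largest negative log2 fold change of all members. It was at 12.6, 11.3 and 13.8 CPM in the control mice and 11.8, 9.0 and 8.21 CPM in n-Braf mice. The groups overlapped, because n-Braf 1 was above control 2. Its log2 fold change was -0.38 (SE 0.15, 95% interval -0.72 to -0.04), with a p of 0.0340 and an adjusted p of 0.713 by edgeR's quasi-likelihood test. The authors' deposited table gives -0.38 and a p of 0.0416, the smallest p of any member there, with an adjusted p of 0.964. The other settings gave -0.55 to -0.24 for this gene.

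Pcdhgb4 was the only gamma gene with groups that did not overlap, at 13.9, 13.1 and 14.8 CPM in the control mice and 15.5, 15.9 and 15.3 CPM in n-Braf mice (log2 fold change 0.16, SE 0.09). Pcdhga9 was at 19.5, 24.2 and 21.9 CPM in the control mice and 19.997, 18.2 and 20.7 CPM in n-Braf mice (-0.16, SE 0.11), with control 1 among the n-Braf values. Pcdhgb1 was at 16.6, 17.6 and 15.6 CPM in the control mice and 15.8, 13.6 and 16.1 CPM in n-Braf mice (-0.13, SE 0.10). In the last of these, n-Braf 2 was below the rest, and that library held the lowest value of 9 of the 22 gamma members. By subfamily, 4 of the 12 gamma A genes were above 0, with a median of -0.04, and 4 of the 7 gamma B genes, with a median of 0.06. The summed gamma A level was 257 ± 6.91 CPM in controls and 252 ± 19.6 CPM in n-Braf mice, and the summed gamma B level was 127 ± 0.843 and 129 ± 2.83 CPM.

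Over the 3 clusters, 5 of 57 members (8.77%) had groups that did not overlap, where 11.5% of all genes tested did. Pcdha12 and Pcdhgb4 were higher in n-Braf mice, against 6.09% of all genes. Pcdha11, Pcdhb9 and Pcdhb10 were lower, against 5.44% of all genes. The share of members was not above the background.

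**Figure D4:**
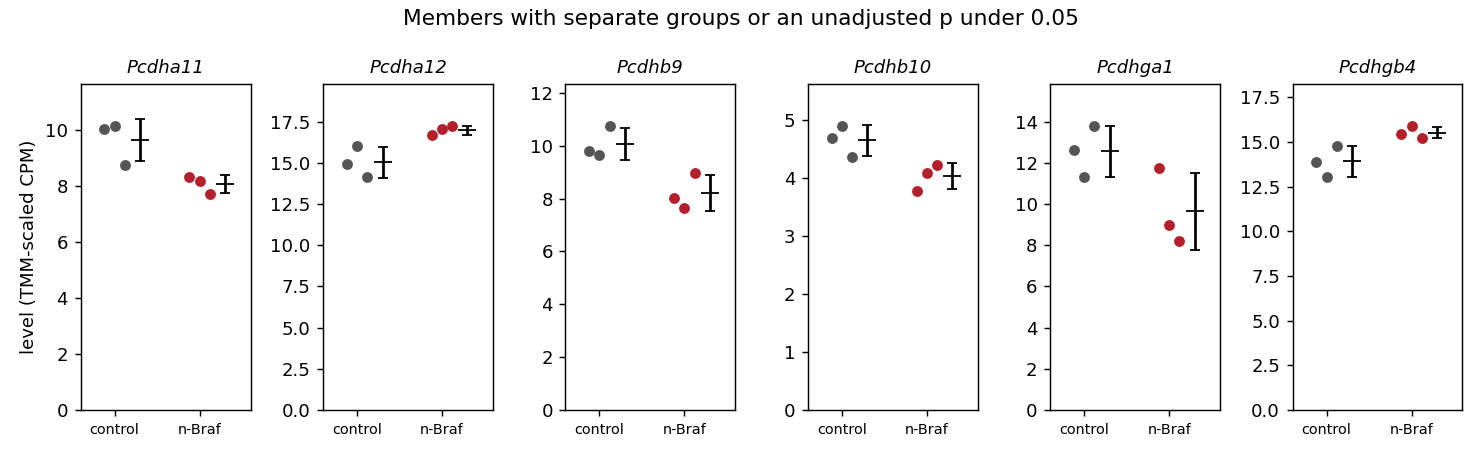
Level of the 5 members whose groups do not overlap and of Pcdhga1 in each library (TMM-scaled CPM, vertical axes from 0), with the mean ± SD of 3 libraries at the right of each group. Pcdha11, Pcdhb9 and Pcdhb10 are lower and Pcdha12 and Pcdhgb4 higher in the n-Braf libraries, while 1 n-Braf value of Pcdhga1 lies above the lowest control.

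Levels per kilobase of exon, averaged over the 6 libraries, allow members to be compared with each other. Alpha members ranged from 0.514 CPM per kb for Pcdha1 to 9.39 for Pcdhac2, an 18.3-fold range, with a median of 1.49. Beta members ranged from 0.805 for Pcdhb8 to 3.87 for Pcdhb20, a 4.81-fold range, with a median of 1.73. Gamma members ranged from 2.07 for Pcdhga1 to 14.6 for Pcdhgc5, a 7.03-fold range, with a median of 3.70. The highest levels of all belonged to 3 C-type genes, Pcdhgc5, Pcdhgc3 (12.3) and Pcdhac2, while the C-type genes Pcdhac1 (1.44) and Pcdhgc4 (2.31) were among the ordinary members. The exon length includes the constant exons of the alpha and gamma genes, which beta genes lack.

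**Figure D5:**
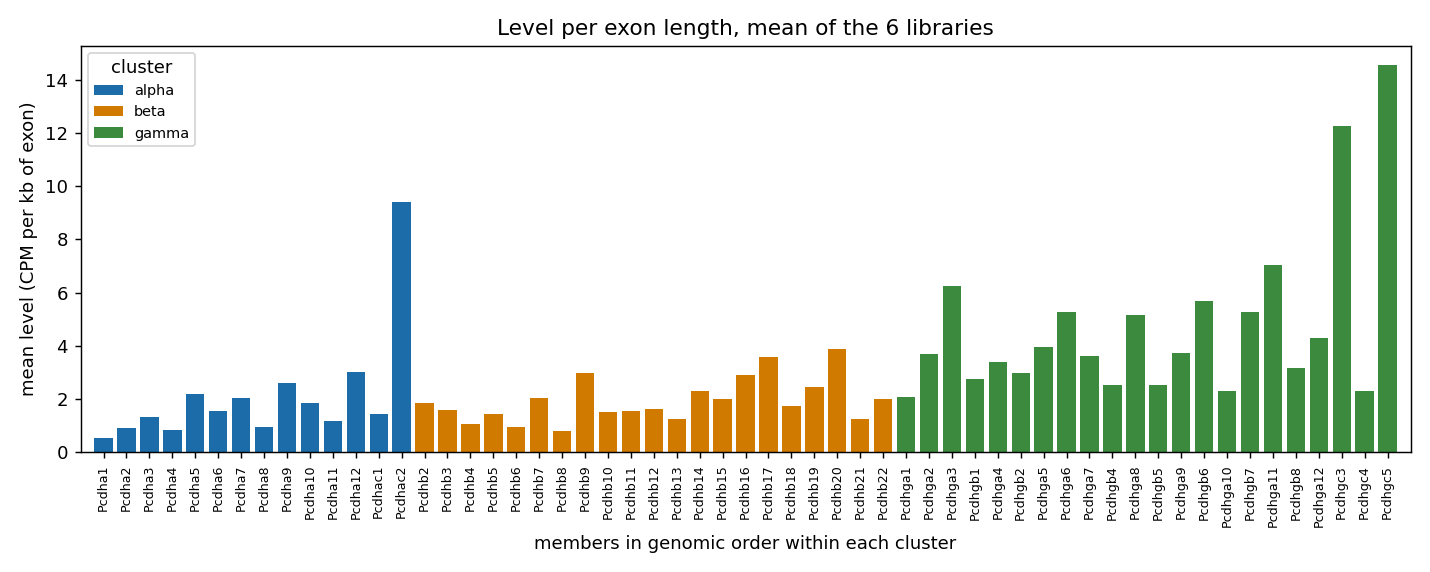
Mean level of each member over the 6 libraries per kilobase of exon (CPM per kb, bars from 0), in genomic order within the alpha, beta and gamma clusters. Pcdhac2, Pcdhgc3 and Pcdhgc5, near the downstream ends of the alpha and gamma clusters, stand above the rest at 9.39, 12.3 and 14.6.

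In the plot of levels per kilobase, members farther downstream tended to be higher, though only weakly in the gamma cluster. There Pcdhgc3 and Pcdhgc5 near the downstream end were the highest, while Pcdhgc4 between them was at 2.31 CPM per kb. The median of the 7 upstream alpha members was 1.32 CPM per kb and that of the 7 downstream members 1.86. The 10 upstream and 11 downstream beta members had medians of 1.53 and 1.996, and the 11 upstream and 11 downstream gamma members 3.62 and 4.29. Spearman's rho between genomic order and level per kb was 0.64 over the 14 alpha, 0.45 over the 21 beta and 0.32 over the 22 gamma members, a description of genes measured in the same libraries. No such gradient was tested between the groups. The median log2 fold changes of upstream and downstream members were 0.16 and 0.05 in the alpha, -0.09 and 0.0033 in the beta and -0.03 and -0.0039 in the gamma cluster.

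The genes with the extreme levels differed little between the groups. Pcdhb20, the highest beta gene per kb, was at 14.4, 12.5 and 14.2 CPM in the control mice and 15.2, 13.6 and 12.8 CPM in n-Braf mice. Its log2 fold change of 0.014 (SE 0.11) was -0.0018 when libraries were scaled by their size alone. Pcdhb8, the lowest, was at 3.39, 2.21 and 3.27 CPM in the control mice and 2.47, 3.21 and 2.28 CPM in n-Braf mice (-0.15, SE 0.24). In both genes the groups overlapped.

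The other genes of the same stretch of chromosome 18 showed no call either. Of 16 gene models of the table that overlap or lie between the clusters, 9 are on the opposite strand, and 6 were above 0 and 10 below. By edgeR's quasi-likelihood test 0 of the 16 had an unadjusted p under 0.05, against 6.82% of all genes, and the smallest was 0.0715. Gm10544 and Gm29994 had every n-Braf value below every control value, as did 5.44% of all genes. Taf7, which encodes a subunit of the general transcription factor TFIID and lies between the beta and gamma clusters, was at 11.6, 11.5 and 14.2 CPM in the control mice and 10.4, 11.9 and 12.5 CPM in n-Braf mice (-0.10, SE 0.13) and was named after its values were seen. Whether counting used the strand is not given in the sources used here, so reads of a member and of a model on the opposite strand may not have been separated.

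The nonclustered protocadherins are related genes elsewhere in the genome, each with its own cytoplasmic end. Of 12 listed, Pcdh12 had no entry, and of the 11 tested 7 were above 0 and 4 below, with a median of 0.03 on the log2 scale. By edgeR 0 passed at an adjusted or an unadjusted p under 0.05, against 0% and 6.82% of all genes. The 3 with the smallest p were Pcdh19, an epilepsy gene, at -0.17 (SE 0.09), Pcdh1 at 0.14 (SE 0.08) and Pcdh8, an activity-regulated protocadherin, at -0.16 (SE 0.11).

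Regulators that act on the clusters were listed as well, among them CTCF, cohesin and its loaders, DNA methyltransferases and the repressor REST. All 26 were tested, 0 passed at an adjusted p under 0.05 by edgeR, 8 were above 0 and 18 below, and the median was -0.04. Rest, a repressor of neuronal genes, was at 14.9, 11.6 and 12.9 CPM in the control mice and 10.3, 9.60 and 9.53 CPM in n-Braf mice. All n-Braf values were below all control values, with a log2 fold change of -0.42 (SE 0.12), a p of 0.00651 and an adjusted p of 0.543 by edgeR's quasi-likelihood test. It was the only 1 of the 26 with an unadjusted p under 0.05, against 6.82% of all genes. Zfp143, at 0.25 (SE 0.14), was the 1 gene of the list with all n-Braf values above all control values. Such groups were found in 6.09% of all genes, and groups apart in the direction of Rest in 5.44%. The cohesin subunit gene Stag2 was at -0.14 (SE 0.08) and the cohesin regulator Pds5a at -0.12 (SE 0.07). Ctcf, named after its values were seen, was at -0.04 (SE 0.07), and without n-Braf 1 at 0.02.

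Partners and signalling genes of the protocadherins, such as the WAVE complex, the kinases Ptk2 and Ptk2b and the protease Adam10, made a list of 26, all tested. By edgeR 0 passed at an adjusted p under 0.05, 17 were above 0 and 9 below, and the median was 0.04. Cyfip2, a WAVE complex subunit, was at 814, 850 and 838 CPM in the control mice and 950, 902 and 962 CPM in n-Braf mice. The groups did not overlap, and the log2 fold change was 0.17 (SE 0.06) with a p of 0.0245 and an adjusted p of 0.676 by edgeR's quasi-likelihood test. Wasf2, another gene of that complex, was at -0.26 (SE 0.12), or -0.15 without control 1 and -0.098 without controls 1 and 2, and Nlgn2, an adhesion protein of inhibitory synapses, at 0.17 (SE 0.08). Cyfip2 was the only gene of this list with an unadjusted p under 0.05, against 6.82% of all genes. Groups did not overlap in 2 genes that were higher in n-Braf mice, Cyfip2 and Nlgn1, against 6.09% of all genes. They did not overlap in 4 that were lower, Wasf2, Fmnl2, Axin1 and Ret, against 5.44% of all genes.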

How the data were processed

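Per the submitters' processing notes, reads were handled with bcl2fastq 2.20, fastp 0.20.1, STAR, RSEM and edgeR 3.36.0 on mm10. Per the labels' protocols, 10.0 ng of total RNA per library entered a strand-specific kit. For STAR and RSEM no version was found, and the strand setting and annotation release are likewise not given in the sources used here. Each gene of the table has its expected count in every library, as deposited by the authors, and their own log2 fold change, mean log2 CPM, p-value and adjusted p-value. Genes with few counts had been removed from the deposited table.

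Expected counts were rounded. With edgeR 4.0.16 in R 4.3.3, filterByExpr (minimum count 10) kept 20604 genes, which were scaled by TMM and tested with the quasi-likelihood test on the group, with Benjamini-Hochberg adjustment over all of them and a threshold of 0.05. DESeq2 1.42.0 and limma 3.58.1 (voom) were alternatives. Standard errors were the unshrunk log2 coefficient over the square root of F. Gene models came from GENCODE M21 by gene ID. The fitting was tested on simulated data.

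Members and lists were chosen with earlier results of these data known. Named were the C-type genes, the 4 members of each cluster with the smallest p, the highest and lowest per exon length in each cluster, and the 3 genes of each list with the smallest p. Pcdha4, Gm42416, Gm38182, Taf7 and Ctcf were added after their values were seen.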

Additional observations from a re-analysis of the deposited data

How the results depend on the processing

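Depth left all members with 53.4 counts or more in each library, and with 3 mice a group the 95% intervals of 17 members reached beyond 0.5 on the log2 scale. Members called stayed at 0 in each cluster under all 19 alternatives, an adjusted p of 0.1 included. Of 594 values of single genes under alternatives, 24 changed sign and 570 did not, and 0 passed the threshold. Replicate numbers did not pair the mice (correlations of deviations across genes 0.10, -0.05 and -0.01 for equal numbers), and with the replicate block 0 members were called and the medians were 0.12, -0.034 and -0.0093 in the alpha, beta and gamma clusters, with no call changed. Causes of the shifts below were not tested.

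With age as a covariate the beta median was 0.041, and Pcdhgc3 was at 0.080, Pcdhgc4 at 0.051, Pcdhgc5 at -0.021, Pcdhb8 at 0.16 and Pcdh1 at -0.020. Without controls 1 and 2, Pcdhac2 was at -0.016, Pcdhb20 at -0.040, Gm42416 at -0.087 and Gm38182 at 0.32, a fit that takes the spread from the n-Braf libraries because a single control remains. Over the 18 refits the gamma median ran from -0.061 to 0.016 and its members above 0 from 7 to 13, and the beta median from -0.051 to 0.041. Under scaling by library size alone Pcdhb20 was at -0.0018. Leaving out each replicate in turn gave -0.056 to 0.029 for Pcdhgc3, -0.0042 to 0.15 for Pcdhgc5, -0.0605 to 0.066 for Pcdhb20, -0.31 to 0.086 for Pcdha4, -0.090 to 0.016 for Ctcf, -0.38 to 0.42 for Gm42416, -0.46 to 0.42 for Gm38182 and -0.16 to 0.0087 for Taf7. The number of beta members above 0, counted under each setting after the data were seen, was 6 to 11, with 6 without control 2 or without n-Braf 1. Braf passed the threshold with DESeq2 (log2 fold change 0.69, adjusted p 6.12e-14), without mitochondrial and the 20 most abundant genes (0.69, adjusted p 0.0457, edgeR) and without control 3 (0.68, adjusted p 0.0145, edgeR), and ran from 0.63 to 0.72 when each replicate was left out.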
